A study of Mus musculus with 2 samples.

Results

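Voltage-gated sodium, calcium, potassium and hyperpolarisation-activated (HCN) channel genes were followed as 1 list of 31 members in mouse hindbrain at 10.5 days of development. The members were given as a list of symbols and taken as the rows of both gene tables whose Ensembl identifier maps to a listed symbol. All 31 were present in both tables, among 43346 annotated genes. They comprised 7 sodium channel genes, 13 calcium channel genes, 8 potassium channel genes and 3 HCN genes, and 24 of them code for pore-forming subunits and 7 for auxiliary subunits.

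The study sequenced total RNA from hindbrain of B6NCrl embryos in 1 group without treatment. Replicate 1 was a pool of 69 embryos and replicate 2 a pool of 51 embryos, with males and females pooled, and 10 ng of RNA plus synthetic spike-in RNAs entered each library. A single donor identifier is given for both pools, and nothing in the labels says which litters or dissections a pool came from, so differences between the 2 libraries describe these pools and were given no p-value. The tissue is whole, so fewer cells of a type and less RNA per cell cannot be told apart.

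Voltage-gated channels open when the membrane potential shifts and let ions cross. Sodium channels carry the upstroke of the action potential, potassium channels end it and set the firing threshold, calcium channels couple depolarisation to transmitter release and gene expression, and HCN channels open on hyperpolarisation and support rhythmic firing. Pore-forming subunits make the channel itself, while beta and alpha2delta subunits bring it to the membrane and tune its gating. In the embryonic hindbrain the earliest neurons leave the cycle next to dividing progenitors, and early calcium and potassium channels there are known to take part in spontaneous activity before synapses mature.

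Expected counts on annotated genes summed to 38170090 for replicate 1 and to 36382245 for replicate 2. Levels are given as TPM, an abundance per length scaled to the same total in each library, and spike-ins took 13.03% and 7.82% of it. A single count on a transcript of 1 kilobase was worth 0.037 and 0.0413 TPM. Marker lists were read for cell types: all 10 neuron markers and all 6 neural progenitor markers had at least 1 TPM in both libraries, led by Tubb3 and Vim. The lists are of cell types and not of brain regions, so they do not check the hindbrain label. Heart and muscle markers, 4 of 9 at this level in both, summed to 15.03 and 41.3 TPM in replicates 1 and 2, and cranial sensory ganglion markers, 8 of 9, to 103.3 and 154 TPM. Both sums were higher in replicate 2, while neuron markers summed to 2073 and 1382 TPM, and no marker of these lists was at 0. Their part in the differences between the pools below was not tested.

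A member was called detected when its TPM was at least 1 in both libraries. This was so for 16 of 31 members (51.6%), against a background of 58.8% of 21474 protein-coding genes, so the list was near the background. Replicate 1 alone had 21 members at or above 1 TPM. The 5 that fell under 1 TPM in replicate 2 were Scn2a, Cacna1e, Cacna2d2, Cacnb4 and Kcnc1, and the other 10 were under 1 TPM in both. The median member had a mean of 1.52 TPM, and the median protein-coding gene 4.02 TPM. By class, 6 of 7 sodium channel members, 8 of 13 calcium channel members, 1 of 8 potassium channel members and 1 of 3 HCN members were detected.

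**Figure D1:**
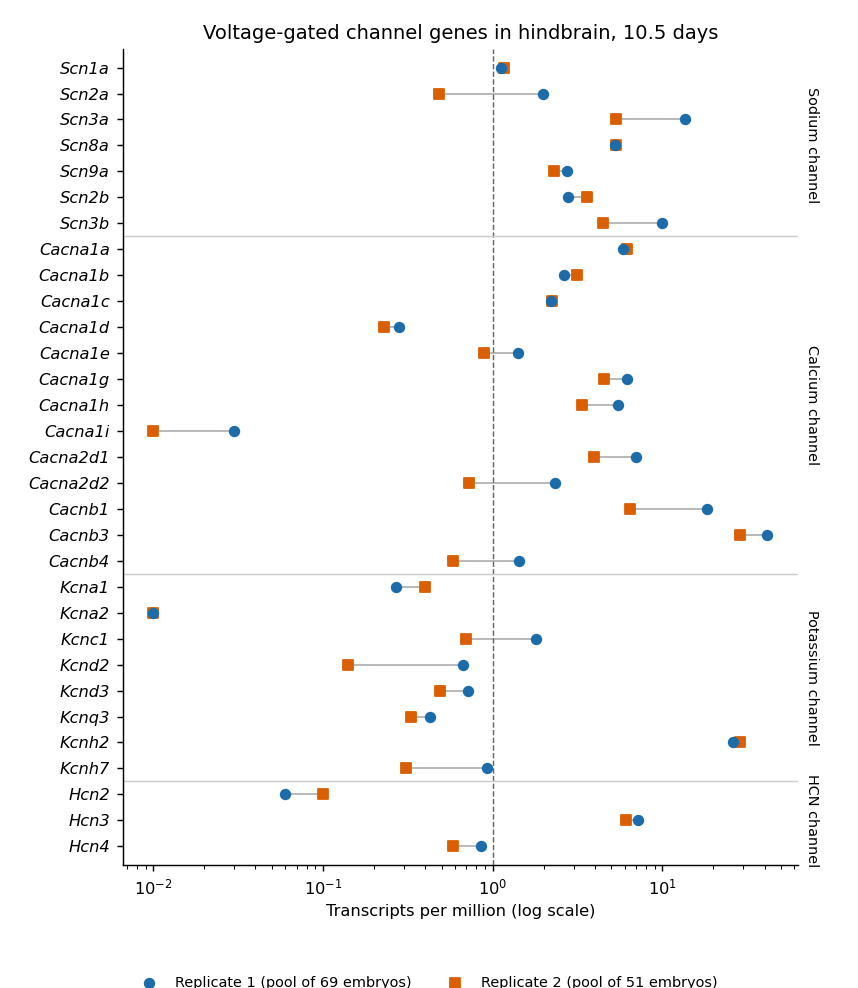
Level of each of the 31 channel genes in TPM on a log axis, with replicate 1 as circles and replicate 2 as squares joined by a line, ordered by ion and separated by grey lines. The dashed line marks 1 TPM; Cacnb3 and Kcnh2 stand highest, and 7 of the 8 potassium channel genes lie left of that line in replicate 2.

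A few members made up most of the channel RNA. Summed over the list, members reached 171 TPM in replicate 1 and 122 TPM in replicate 2. Cacnb3, Kcnh2 and Cacnb1 together held 50.2% and 52.6% of these sums, and Cacnb3 alone 24.3% and 23.7%. Calcium channel members summed to 94.6 and 61.1 TPM, sodium channel members to 37.4 and 22.6 TPM, potassium channel members to 30.8 and 31.1 TPM and HCN members to 8.13 and 6.82 TPM. The 7 auxiliary genes held 48.7% and 39.9% of the TPM of the list.

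Many pore genes carried much of their TPM in short or unfinished transcript models, which matters for reading their levels. A long coding transcript was defined as a complete protein-coding model whose coding part is at least 50% of the longest coding part of its gene. Over the 16 detected members the median share of TPM in such transcripts was 57.1%, beside 94.8% over all detected protein-coding genes. In 6 of them (37.5%) it was under 50%, against a background of 14.0% of detected protein-coding genes. Counted in long coding transcripts only, 13 members were detected (background 56.7%), and Scn1a, Cacna1a and Cacna1c were lost.

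Scn8a shows how the 2 scales part. Its 1072-base transcript Scn8a-202, with 306 coding bases, held 61.7% and 66.4% of the gene's TPM, yet long coding transcripts held 87.7% and 85.2% of its expected counts. TPM divides counts by length, so 85.5 and 83.4 counts on the short model outweighed 609 and 482 counts on the long ones. Cacna1a had the lowest share, with 16.2% and 10.2% of its TPM and 60.6% and 48.1% of its counts in long coding transcripts. Its 2 leading models, Cacna1a-207 and Cacna1a-203, are both annotated as retained introns. Ranked by long coding TPM, Cacna1a moved from position 7 of 31 to a tie for position 18.

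**Figure D2:**
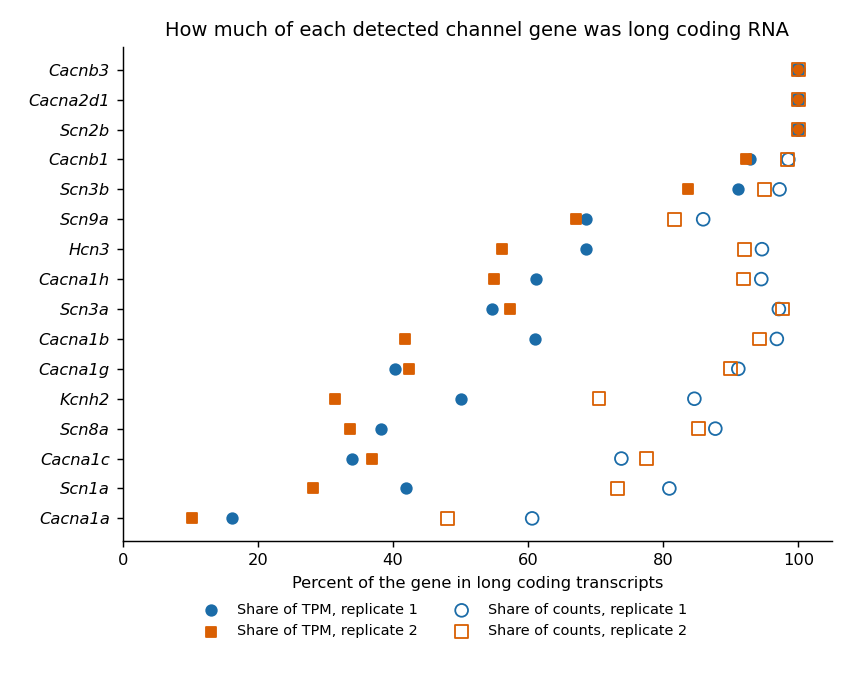
Share of each detected channel gene found in long coding transcripts, as a percent of TPM (filled symbols) and of expected counts (open symbols), with replicate 1 as circles and replicate 2 as squares. For Cacnb3, Cacna2d1 and Scn2b all symbols lie at the right edge, while Cacna1a has 16.2% and 10.2% of its TPM there.

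Among the sodium channel pore genes, Scn3a, which codes for Nav1.3, the form known as prevalent in the embryonic nervous system, had the highest mean TPM. By gene TPM it led in replicate 1 only, being level with Scn8a in replicate 2. In long coding transcripts Scn3a led Scn8a in both libraries, at 7.44 and 3.04 TPM beside 2.02 and 1.79 TPM. Over all its models Scn3a stood at 13.6 and 5.31 TPM in replicates 1 and 2 (9.46 ± 5.86, SD, n = 2), from 1799 and 656 counts. It made up 55.0% and 36.4% of the TPM of the 5 pore members. Replicate 1 was the higher, and the deposited intervals, 11.5 to 15.5 and 4.17 to 6.72 TPM, do not overlap. Scn8a (Nav1.6, the main channel of mature axon initial segments) was level between the libraries on this scale, at 5.27 and 5.32 TPM (5.29 ± 0.035, SD, n = 2).

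Scn9a (Nav1.7, best known from sensory neurons) was at 2.74 and 2.31 TPM. Scn2a (Nav1.2, found in early unmyelinated axons) was at 1.99 and 0.48 TPM, from 399 and 100 counts, and lay well apart between the pools. Scn1a (Nav1.1, a channel of inhibitory interneurons in the mature brain) was at 1.12 and 1.17 TPM, with 42.0% and 28.2% of that in long coding transcripts. Scn3a, Scn2a, Scn1a and Scn9a lie together on chromosome 2, between chr2:65457118-65567627 for Scn3a (minus strand) and chr2:66480080-66634962 for Scn9a (minus strand) in mm10. Neighbours in this cluster thus ranged from 1.15 to 9.46 in mean TPM.

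The beta subunit genes were both detected. Scn3b, whose protein binds the pore without a covalent bond, was at 9.92 and 4.44 TPM (7.18 ± 3.88, SD, n = 2), and Scn2b, whose protein is linked to the pore by a disulphide bond, was at 2.78 and 3.62 TPM. Scn3b was higher in replicate 1 and Scn2b higher in replicate 2.

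The leading model of Scn3a was Scn3a-203, an incomplete model of 365 bases. It held 44.6% and 42.5% of the gene's TPM on 43.6 and 14.6 counts, while the 2 long models together held 1747 and 640 counts. By counts, then, nearly all Scn3a reads lay on the long models in both libraries. Scn3a-202, the more abundant of these, was at 5.71 and 2.33 TPM.

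An alternative end of an exon in Scn9a adds 33 coding bases at chr2:66540264-66540296 (minus strand). Models with the extension held 72.3% of long coding TPM in replicate 1 and 39.4% in replicate 2. The models also differ outside the coding part: Scn9a-202 has 9840 bases, Scn9a-203 6471 and Scn9a-207 7497. These shares are therefore of whole models and cannot be read as use of the extension alone. In replicate 1 Scn9a-202, with the extension, had 358 counts and Scn9a-203, without it, 21.1 counts; in replicate 2 they had 143 and 126 counts. The deposited intervals of each model do not overlap between the libraries, at 1.02 to 1.48 and 0.36 to 0.75 TPM for Scn9a-202 and 0 to 0.40 and 0.45 to 1.02 TPM for Scn9a-203.

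Calcium channel pore genes split into high-voltage and low-voltage (T-type) channels. Among the former, Cacna1a (Cav2.1) was at 5.86 and 6.19 TPM, Cacna1b (Cav2.2) at 2.64 and 3.16 TPM and Cacna1c (Cav1.2) at 2.21 and 2.25 TPM. Cav2.1 and Cav2.2 serve transmitter release and Cav1.2 is an L-type channel of neurons and heart. On the TPM scale these 3 genes differed little between the pools, and all were slightly higher in replicate 2. Cacna1e (Cav2.3) was at 1.41 and 0.89 TPM and Cacna1d (Cav1.3, an L-type pacemaker channel) at 0.28 and 0.23 TPM.

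In long coding transcripts the order changed. Cacna1b led this group at 1.61 and 1.32 TPM, ahead of Cacna1a at 0.95 and 0.63 TPM and Cacna1c at 0.75 and 0.83 TPM. Cacna1b-208, an incomplete model of 523 bases, held 32.2% and 58.2% of the TPM of Cacna1b on 9.7 and 18.9 counts. Cacna1c lies opposite Dcp1b, a decapping gene at 8.86 and 8.39 TPM, and Cacna1a opposite the antisense gene Gm16183 at 1.49 and 1.49 TPM. Whether the counting used strand is not given in the sources used here, so reads from such partners cannot be told apart.

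The T-type pore genes Cacna1g (Cav3.1) and Cacna1h (Cav3.2), which open near the resting potential, lay in the same range. Cacna1g was at 6.20 and 4.53 TPM (5.37 ± 1.18, SD, n = 2) and Cacna1h at 5.47 and 3.37 TPM (4.42 ± 1.49, SD, n = 2), both higher in replicate 1. In long coding transcripts they stood at 2.50 and 1.92 TPM and at 3.34 and 1.85 TPM, above each high-voltage pore gene in both libraries. Cacna1i (Cav3.3) had 7 and 3 counts.

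Cacna1c and its relative Cacna1d have a pair of mutually exclusive exons of 104 bases. The Cacna1c pair is shown because both copies were read in both libraries. The copies lie at chr6:118742265-118742368 and chr6:118741871-118741974 (minus strand, GRCm38, from GENCODE M21 transcripts), and capitals mark the 32 bases at which they differ.
Cacna1c upstream exon: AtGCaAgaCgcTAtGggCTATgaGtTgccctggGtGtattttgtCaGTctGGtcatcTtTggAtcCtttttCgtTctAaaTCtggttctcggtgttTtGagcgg
Cacna1c downstream exon: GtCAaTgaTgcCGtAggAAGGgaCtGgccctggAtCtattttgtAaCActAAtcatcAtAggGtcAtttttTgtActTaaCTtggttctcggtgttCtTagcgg
The downstream copy held 78.7% and 75.9% of long coding TPM, or 67.0% and 63.3% of the counts (115 of 171 and 109 of 172). In Cacna1d the same choice stood at 75.0% and 45.5% for the downstream copy, on 49 and 22 counts. Cacna1b also has an annotated pair, of 97 bases, but no long coding model carries its upstream copy, so its use cannot be read here.

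An auxiliary calcium channel gene held the highest level of the list, and the others ranged widely. Cacnb3, coding for the beta3 subunit that carries pore subunits to the membrane, was at 41.5 and 28.8 TPM (35.1 ± 8.98, SD, n = 2), from 2903 and 1803 counts. Cacnb1 (beta1) was at 18.3 and 6.45 TPM (12.4 ± 8.36, SD, n = 2). Both were higher in replicate 1, and the deposited intervals of the 2 libraries do not overlap for either gene. Cacnb4 (beta4) was at 1.42 and 0.58 TPM.

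Cacna2d1, coding for the alpha2delta1 subunit to which gabapentin binds, was at 7.01 and 3.93 TPM, all of it in long coding transcripts. Its 21-base exon was carried by 80.9% and 100% of that RNA, but Cacna2d1-202, which lacks the exon, has intervals of 0.29 to 2.46 and 0 to 1.69 TPM, so the libraries cannot be told apart on it. The longer of the forms of another exon, which differ by 15 bases, was carried by 76.2% and 76.1%. Its TPM lay on Cacna2d1-203 and Cacna2d1-202, of 7436 and 7415 bases, and that of the shorter form on Cacna2d1-204, of 3412 bases. This share is thus of whole models and cannot be read as choice of the exon form alone. Cacna2d2 (alpha2delta2) was at 2.32 and 0.73 TPM. It crossed the detection limit in replicate 1 only.

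Cacnb3 RNA was assigned mainly to 1 of its 2 models. Cacnb3-202 held 87.7% of the gene's TPM in replicate 1 and 90.5% in replicate 2, and Cacnb3-201 the rest, at 5.10 and 2.74 TPM. The models also differ after their starts, with 13 coding exons in Cacnb3-202 and 12 in Cacnb3-201, so the shares are not of the starts alone. Their first coding bases differ and are shown with the first 20 shared bases in capitals. The lower-case bases lie at chr15:98635169-98635213 for Cacnb3-201 and chr15:98632479-98632520 for Cacnb3-202 (plus strand, GRCm38, from GENCODE M21 transcripts).
Cacnb3-201: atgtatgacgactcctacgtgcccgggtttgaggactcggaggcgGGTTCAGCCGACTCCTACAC
Cacnb3-202: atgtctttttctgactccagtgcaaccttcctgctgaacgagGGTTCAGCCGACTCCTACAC
The RefSeq table (GRCm38.p6) holds a window at each start. The 250 bases before them, at chr15:98632078-98632327 upstream of Cacnb3-202 (start 1) and chr15:98634517-98634766 upstream of Cacnb3-201 (start 2), both on the plus strand, are printed with each CG in capitals, since the start with few of them belonged to the more abundant transcript.
Cacnb3 start 1: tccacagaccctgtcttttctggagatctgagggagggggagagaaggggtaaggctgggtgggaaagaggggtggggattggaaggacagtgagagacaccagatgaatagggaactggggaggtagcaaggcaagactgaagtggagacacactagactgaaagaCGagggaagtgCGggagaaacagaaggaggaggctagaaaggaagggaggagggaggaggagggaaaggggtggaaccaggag
Cacnb3 start 2: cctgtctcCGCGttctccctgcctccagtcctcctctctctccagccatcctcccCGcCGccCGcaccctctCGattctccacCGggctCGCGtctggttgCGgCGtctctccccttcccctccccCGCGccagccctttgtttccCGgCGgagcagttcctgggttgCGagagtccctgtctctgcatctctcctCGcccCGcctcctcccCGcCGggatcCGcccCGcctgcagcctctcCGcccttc

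Promoter windows were found for 23 members, with 32 windows of 300 bases in all. The median member window held 24 CG dinucleotides, and the median of all 32851 windows was 7. At least 15 were present in 59.4% of member windows and 34.6% of all windows. The letters TATAAA, searched on the gene's strand, stood in 2 member windows, beside 8.32% of all windows. A match is a description of the letters, not of a used site.

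The potassium channel members were low apart from 1. Kcnh2, which codes for the ERG1 channel that repolarises heart cells and sets excitability in some neurons, was at 26.01 and 28.7 TPM (27.4 ± 1.92, SD, n = 2) and made up 84.3% and 92.3% of the potassium channel TPM of the list. Its deposited intervals overlap between the libraries, at 23.6 to 28.0 and 25.8 to 30.95 TPM. Kcnc1 (Kv3.1, a channel of fast-spiking neurons) was at 1.81 and 0.70 TPM, and Kcnh7 (ERG3) at 0.92 and 0.31 TPM.

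Kcnd3 and Kcnd2, the listed Kv4 genes of the transient A-type current, were at 0.72 and 0.49 TPM and at 0.67 and 0.14 TPM. Kcnq3, a subunit of the M-current channel, was at 0.43 and 0.33 TPM. Kcna1 (Kv1.1, an axonal channel) was at 0.27 and 0.40 TPM, from 65 and 87 counts, and Kcna2 (Kv1.2) had 1 count in each library. At this depth these genes were read but low, with replicate 1 higher for the Kv4 genes and Kcnq3 and replicate 2 higher for Kcna1.

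Much of the Kcnh2 signal was assigned to a noncoding model. Kcnh2-204, a 741-base model annotated as a processed transcript, held 46.4% of the TPM in replicate 1 and 68.6% in replicate 2, on 210 and 306 counts. The coding remainder divided between a long start, Kcnh2-201 (the ERG1a form), at 5.23 and 2.15 TPM, and a short start, Kcnh2-202 (ERG1b), at 7.78 and 6.87 TPM. The short start thus made up 59.8% and 76.2% of long coding TPM. Kcnh2-201 was lower in replicate 2 (intervals of 4.51 to 5.76 and 1.68 to 2.55 TPM), while the noncoding model was higher (9.69 to 14.2 and 16.7 to 22.0 TPM), and the intervals of Kcnh2-202 overlap (6.71 to 8.51 and 5.92 to 7.48 TPM).

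The 2 starts join a common exon at chr5:24326349-24326777 (minus strand, GRCm38). The last 108 bases that are particular to each form are shown, with the first 20 shared bases in capitals. These 108 bases are the whole of the short form's own coding part, at chr5:24329165-24329272, while the long form has 1134 bases of its own.
Kcnh2-201 (long start): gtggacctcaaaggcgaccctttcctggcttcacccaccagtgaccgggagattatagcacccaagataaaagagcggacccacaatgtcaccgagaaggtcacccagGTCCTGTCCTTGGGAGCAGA
Kcnh2-202 (short start): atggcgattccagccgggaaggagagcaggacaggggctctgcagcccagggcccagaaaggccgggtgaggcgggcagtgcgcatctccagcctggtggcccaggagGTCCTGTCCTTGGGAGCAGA

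**Figure D3:**
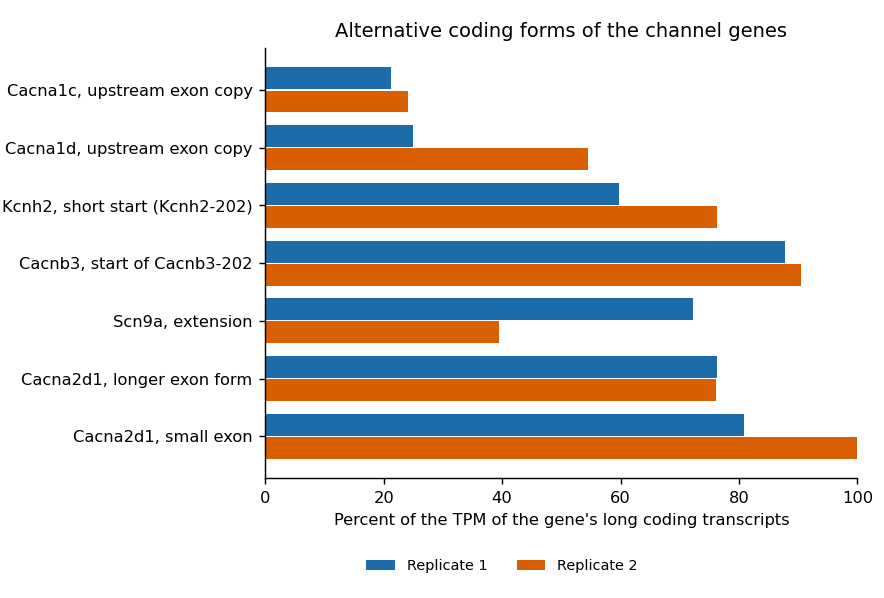
Share of each alternative coding form among the long coding transcripts of its gene, in percent of TPM, with 1 bar for each library. Shares are of whole transcript models, which can also differ outside the form named. The short start of Kcnh2 and Cacnb3-202 led in both libraries, and Cacna1c used mainly the downstream exon copy; Cacna1d rests on 65 and 49 counts in all.

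Of the HCN genes only Hcn3 was detected, at 7.22 and 6.14 TPM (6.68 ± 0.764, SD, n = 2), and it made up 88.8% and 90.0% of the HCN TPM of the list. Long coding transcripts held 68.6% and 56.2% of it, and the retained-intron model Hcn3-202 27.1% and 43.8%. It lies opposite Pklr, the pyruvate kinase of liver and red cells, at 3.41 and 5.06 TPM. Hcn4, the pacemaker channel of the sinus node, was at 0.85 and 0.58 TPM, and Hcn2 had 5 and 7 counts.

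The 2 pools were then set side by side. The log2 ratio of scaled counts, replicate 2 over replicate 1, had a median of -0.56 over the members and 0 over all protein-coding genes, and it was below 0 for 26 members and above 0 for 5. Exact 95% intervals for counting error alone lay wholly below 0 for 23 members and wholly above it for 2, Scn2b (0.31) and Kcna1 (0.49). These intervals cover no difference between pools of embryos. The same count over all protein-coding genes was not made, so the 23 cannot be read as particular to the list.

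At least a 2-fold lower ratio in replicate 2 was seen for 8 of 31 members, against a background of 5.78% of protein-coding genes, and a 2-fold higher one for 0, against 3.19%. With a mean of at least 1 TPM, 6 of 21 members were 2-fold lower (background 4.15%), 0 were 2-fold higher (background 1.03%) and 19 were below 0 (background 50.6%). The 8 were Kcnd2 (-2.22), Scn2a (-1.90), Cacna2d2 (-1.62), Cacnb1 (-1.62), Kcnh7 (-1.54), Scn3a (-1.37), Scn3b (-1.33) and Cacnb4 (-1.27). Auxiliary members had a median of -1.27, with 4 of 7 at least 2-fold lower, and pore members -0.48, with 4 of 24. The difference between these groups was not tested.

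Scn8a (-0.22), Cacna1a (-0.32), Cacna1b (-0.32) and Cacna1c (0.01) moved least among the detected pore genes. The TPM scale moved 5 members to the other side of 0. Scn1a, Scn8a, Cacna1a, Cacna1b and Kcnh2 were higher in replicate 2 by TPM and lower by scaled counts. In counts of long coding transcripts 26 members were again below 0. On that scale Kcnh2 stood at -0.68 rather than -0.41, and Cacna1a at -0.65 rather than -0.32. Under scaling to the spike-ins the median of all protein-coding genes moved to 0.66 and that of the members to 0.26. Among genes with a mean of at least 1 TPM, which leaves out genes without reads, the members stood at 0.21 and all genes at 0.81 under that scaling, and at -0.61 and 0 under the main one.

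**Figure D4:**
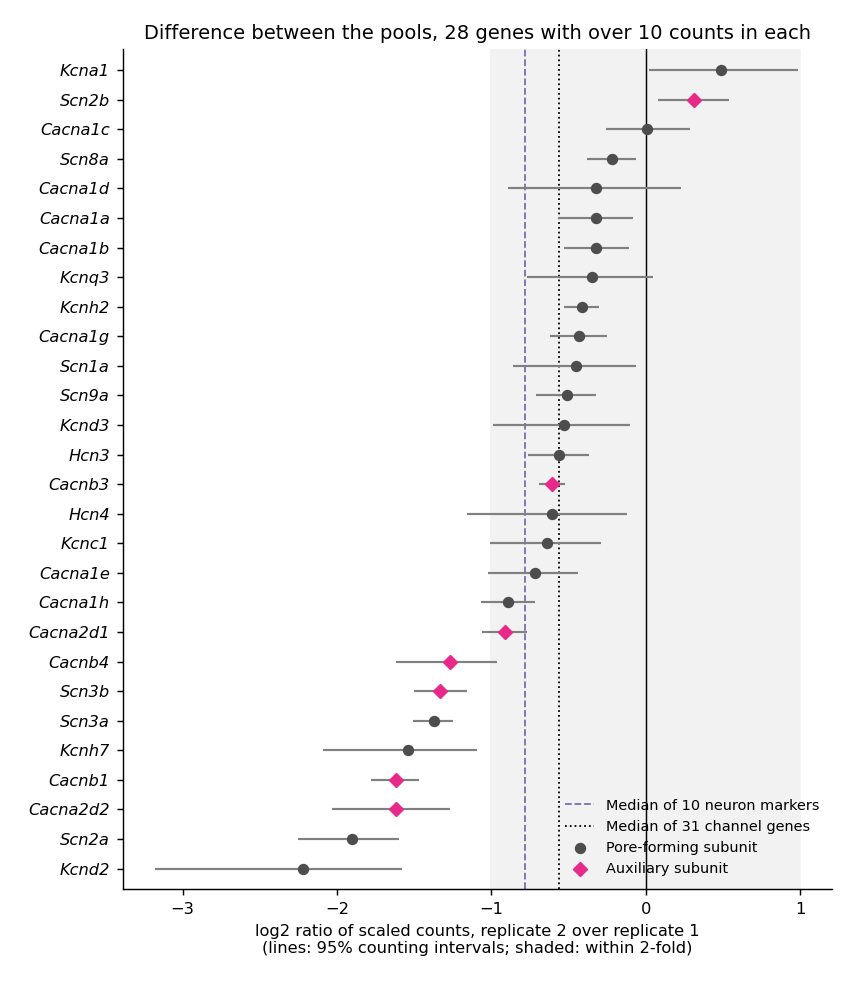
Log2 ratio of scaled counts, replicate 2 over replicate 1, for the 28 channel genes with more than 10 counts in each library, with 95% counting intervals; diamonds are auxiliary subunits and circles pore subunits. The dashed line is the median of the neuron markers (-0.78), the dotted line that of the channel genes (-0.56), and the points left of the shaded band are the 8 genes at least 2-fold lower.

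Markers of cell types moved between the pools too. The neuron markers had a median ratio of -0.78, with 10 of 10 below 0, and ranged from -1.73 to -0.16. Under spike-in scaling they lay on both sides of 0, from -0.91 to 0.66, where the median of all protein-coding genes was 0.66. Neural progenitor markers had a median of -0.18, cranial sensory ganglion markers -0.11 and endothelial markers 0.09. Macrophage markers had a median of -0.64, mural cell markers -0.30 and mesenchyme markers -0.17, each with 4 of 4 below 0. Heart and muscle markers had a median of 1.38, with 8 of 9 above 0. Their part in the channel ratios was not tested.

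The rest of the voltage-gated family was lower on the whole. Of 66 further genes 22 were detected (33.3%), beside 51.6% of the list, and their median was 0.61 TPM. Their median ratio was -0.22, with 11 at least 2-fold lower in replicate 2 (background 5.78%) and 6 at least 2-fold higher (background 3.19%). Several of these 6 had 7 counts or fewer in each library. Among the highest were auxiliary genes: Kcnab2, a Kv beta subunit, at 12.8 and 9.75 TPM, Cacng4, a gamma subunit that also serves AMPA receptors, at 12.6 and 7.50 TPM, Dpp6, a Kv4 auxiliary subunit, at 9.96 and 4.82 TPM, and Kcnip1, a Kv4-binding calcium sensor, at 7.61 and 5.19 TPM. Each of these 4 was higher in replicate 1.

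Partners of the Kv4 members ranged widely in level. Dpp6 and Kcnip1, the highest of them, had means of 7.39 and 6.40 TPM. Their relatives were lower, with means of 1.805 TPM for Kcnip3, 1.16 for Kcnip4, 0.61 for Kcnip2 and 0.10 for Dpp10. The Kv4 pore genes Kcnd2 and Kcnd3 had 0.405 and 0.605 TPM. Kcnd1, a Kv4 pore gene outside the list, had 1.455 TPM and was detected. Of the 13 Kv auxiliary genes 8 were detected, beside 9 of 32 further Kv pore genes.

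Potassium channels of other families included a few at the level of the detected members. Of 35 leak, inward rectifier and calcium-activated potassium channel genes 7 were detected, led by the leak channel genes Kcnk10 (16.5 and 10.3 TPM), Kcnk5 (10.8 and 10.5 TPM) and Kcnk1 (4.94 and 8.36 TPM), followed by the calcium-activated Kcnn1 (7.68 and 3.06 TPM) and Kcnn4 (2.77 and 2.79 TPM). Inward rectifier genes were low, with 1 of 15 detected. Kcnk10 and Kcnn1 were higher in replicate 1 and Kcnk1 in replicate 2.

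**Figure D5:**
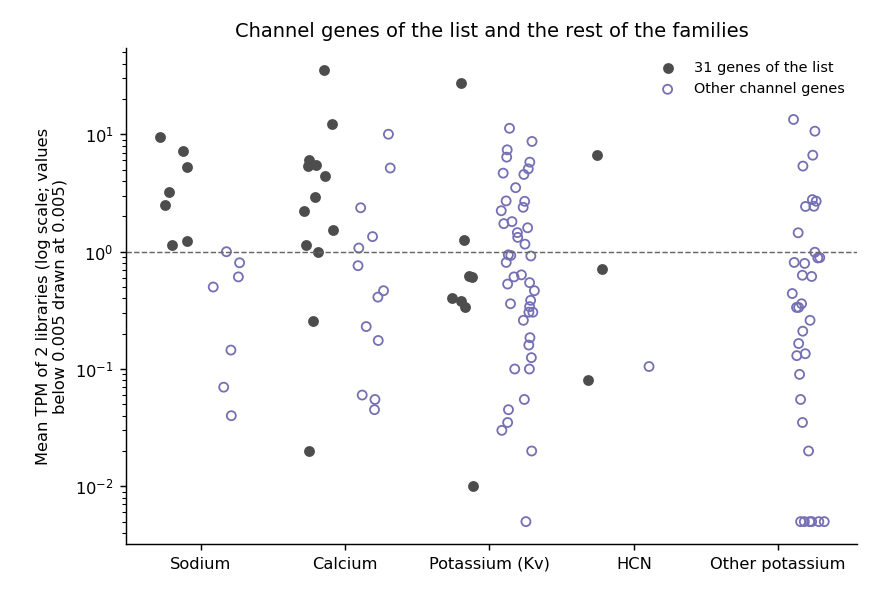
Mean TPM of 2 libraries on a log axis for the 31 genes of the list (filled) and for 66 other voltage-gated and 35 other potassium channel genes (open), by channel type, with a dashed line at 1 TPM. Cacnb3 and Kcnh2 are the highest points, and the voltage-gated classes reach from under 0.1 TPM to above 1 TPM.

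Genes listed for the axon initial segment and channel anchoring, not all of them specific to sodium channels, spanned a wide range. Of 11 such genes 8 were detected, led by Sptbn1 (47.9 and 57.9 TPM), Ank3, which codes for ankyrin-G of the axon initial segment (34.9 and 30.5 TPM), Ank2 (37.1 and 28.1 TPM) and Fgf13, a binding partner of the sodium channel tail (37.7 and 22.7 TPM). Long coding transcripts held 22.4% and 18.6% of the TPM of Ank3 and 29.6% and 28.8% of that of Ank2. For Sptbn1 they held 52.8% and 51.3%, and for Fgf13 73.2% and 78.9%. The others reached down to Sptbn4, the spectrin of the axon initial segment, at 0.26 and 0.28 TPM. The median ratio of the 11 was -0.69, with 10 below 0 and Sptbn1 above it (0.17). All 6 genes of the repressor complex that is known to silence neuronal channel genes outside neurons were detected, and they summed to 575 and 636 TPM. Most of this was Hdac1 (193 and 242 TPM) and Hdac2 (264 and 265 TPM), while Rest was at 13.7 and 19.3 TPM. The ratios of the 6 genes went both ways, with 4 above 0, 2 below it and a median of 0.16.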

How the data were processed

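Total RNA of 2 hindbrain pools was sequenced, and the gene-level and transcript-level tables of each library were read. These deposited tables hold, per the file headers, expected counts (estimated counts that divide reads between transcripts), TPM with a posterior mean, FPKM, the isoform percent, that is the share of each isoform in its gene, and the bounds of a TPM interval, a deposited signal whose level is not stated and which need not hold the TPM. Effective length, another deposited value, was not printed. Notes deposited with the files name the assembly (mm10) and the annotation (M4). Aligner, quantifier and strand setting: not given in the sources used here.

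Gene symbols, transcript classes and coding lengths came from GENCODE M21, matched without version: 98.0% of annotated genes and 181 of 182 member transcripts matched, of which 159 had the same length. The 1 group was described without a test. Log2 ratios are of rounded expected counts scaled by TMM (edgeR 4.0.16) with a prior count of 2, and the ratio script was tested on simulated data. Counting intervals are exact binomial intervals of the 2 counts; they and the precision of low genes follow depth only. Alternatives used FPKM, posterior mean TPM, other detection limits, DESeq2 1.42.0 size factors, total counts, spike-ins, other prior counts, and long coding transcripts (added after the data were seen). The members and lists were chosen with earlier results of these data known. All members are named; of other lists the highest by mean TPM (5 for channels, up to 4 for partners; some items are not reported here), and for isoforms the leading models. Sptbn4, Rest, the further Kv4 genes and their partners, further isoforms and the exon pairs were chosen after their values were seen. Python 3.11.15 and R 4.3.3 were used.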

Additional observations from a re-analysis of the deposited data

How the results depend on the processing

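The number of detected members was 15 to 21 under FPKM, posterior mean TPM, rescaling to annotated genes, limits of 0.5 and 2 TPM, or without replicate 1 or 2 (16 and 21), and 13 in long coding transcripts at a limit of 50% or 80%. The median of the members was 1.17 TPM without replicate 1 and 2.21 TPM without replicate 2. The median ratio reversed to 0.26 under spike-in scaling, where 2 members were at least 2-fold lower, 3 at least 2-fold higher and 20 above 0; as a difference of log2(TPM + 0.1) it was -0.44. Under DESeq2 size factors, total counts and both other prior counts, 26 members stayed below 0. In long coding transcripts calcium channel members held 61.9% of the TPM of the list rather than 53.2%, and potassium channel members 13.5% rather than 21.2%. Without replicate 1 or 2, class shares ranged from 18.6% to 21.9% for sodium, 50.2% to 55.3% for calcium, 18.0% to 25.6% for potassium and 4.8% to 5.6% for HCN. The share of the short Kcnh2 start ranged from 59.8% to 76.2%, and that of Cacnb3-202 from 87.7% to 90.5%. Depth limits members such as Kcna2, Hcn2 and Cacna1i, each with 7 counts or fewer. No paired analysis was possible because there is 1 group.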
